A study of Mus musculus with 76 samples.

Results

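The clustered protocadherins are 57 of the 35825 gene rows measured in single mouse neurons: every row whose symbol places it in the alpha, beta or gamma cluster. Of these, 52 were counted as stochastic isoforms (11 alpha, 22 beta, 12 gamma A and 7 gamma B genes). The other 5 are the C-type isoforms Pcdhac1, Pcdhac2, Pcdhgc3, Pcdhgc4 and Pcdhgc5. Single cells were aspirated into a patch pipette (Patch-seq) from acute slices of mice at postnatal day 4, and each was labelled as an interneuron derived from the medial ganglionic eminence (MGE), lying in the pyramidal cell layer of dorsal CA1 of the hippocampus. The mice were wild type (WT) or carried the gephyrin mutation S268/270A (Mut), in which 2 serines of the scaffold protein of inhibitory synapses are replaced by alanine, and received no treatment. Of 76 labelled cells, 62 passed the authors' quality filter and carried no contamination mark: 28 from WT mice (9 female, 19 male) and 34 from Mut mice (19 female, 15 male). The labels name no animal, so each combination of genotype and sex was treated as 1 sample, cells were described and not tested, and a difference between groups may be one between animals or days of recording.

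Clustered protocadherins are cadherin-like proteins of the neuronal surface. Each stochastic isoform has its own promoter and first exon, and a neuron switches on a few of them, apparently at random. Alpha and gamma first exons are spliced to constant exons shared by the whole cluster, whereas a beta gene is a single exon of its own. Isoforms pair with the same isoforms on the opposing membrane, so the set held by a neuron works as a surface label that lets its branches recognise and avoid each other. C-type isoforms are expressed more evenly among neurons, and Pcdhgc4 is known for its need in the survival of cortical interneurons during the first postnatal weeks.

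All 57 genes lie on the plus strand of chromosome 18 in the GENCODE M21 annotation of GRCm38. The alpha cluster spans 36930184 to 37187661, the beta cluster 37264938 to 37524479 and the gamma cluster 37661793 to 37841873. An isoform was counted in a cell at 10 CPM (counts per 1000000 of that cell's total). Totals ran from 2946456 to 12070780 estimated counts with a median of 6353179, where 10 CPM is 63.5 counts. Of the 10 MGE interneuron markers, a median of 7 per cell were at the limit, with Lhx6 in 57 and Gad1 in 58 of 62 cells. RNA of other cells was present as well: the pyramidal neuron genes Neurod6 or Slc17a7 were at the limit in 39 cells, 3 or more of 11 microglial genes in 7 cells, and the haemoglobin gene Hba-a2 in 53 cells.

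The pattern within a cell was close to on or off. Of 3534 values (57 genes in 62 cells), 65.0% had no read, 22.3% had fewer than 10 reads, 3.34% had 10 or more reads but lay under 10 CPM, and 9.37% (331 values) reached it. Few values lay near the limit: 31 were between 5 and 10 CPM and 32 between 10 and 20 CPM, against 165 at 100 CPM or more. Some MGE markers also had a low median and a high maximum, such as Sox6 (1.30 and 1047 CPM) and Satb1 (1.14 and 672 CPM). Others did not, such as Lhx6 with a median of 337 CPM. The same shares were not computed over all genes, so the pattern is not shown to be particular to these genes. The plot of all genes in all cells shows single dark squares scattered over the stochastic genes and 1 nearly continuous row, Pcdhgc4.

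**Figure D1:**
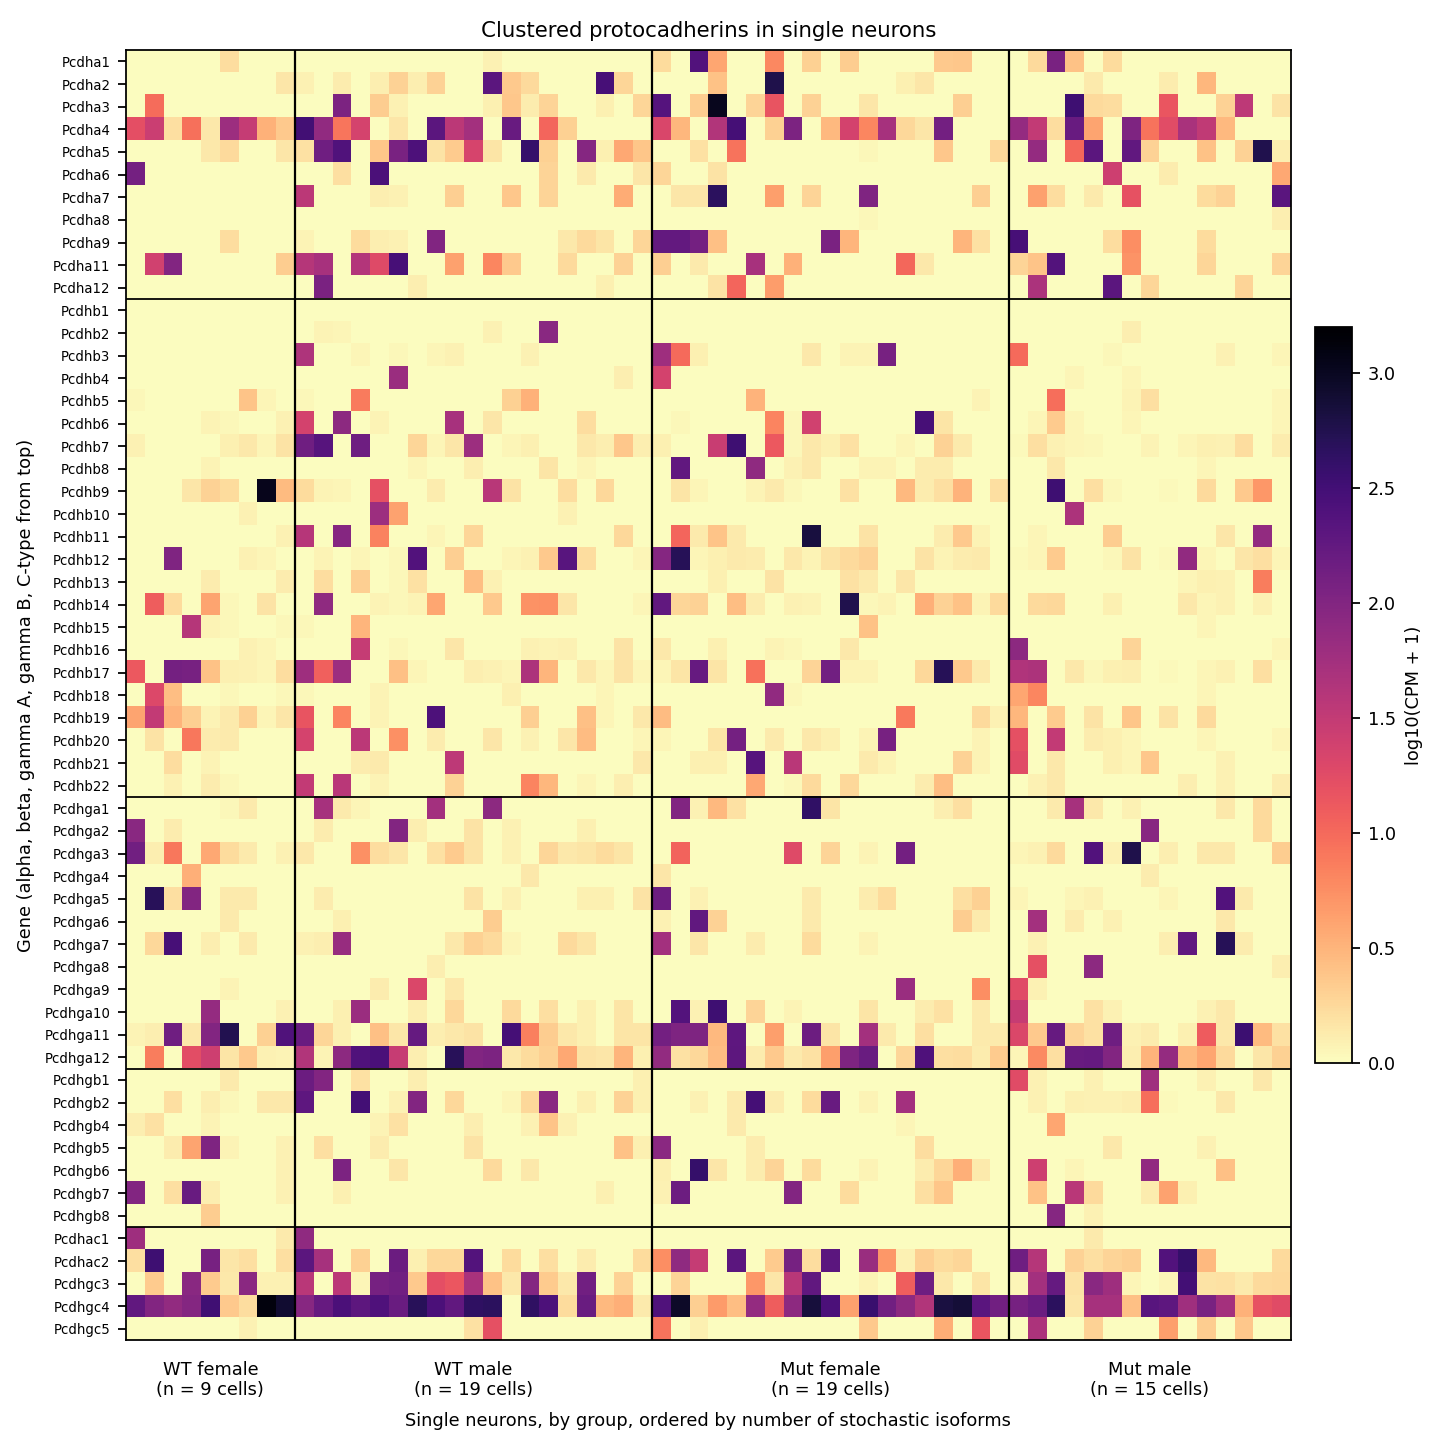
Expression of the 57 clustered protocadherins (rows, in the order alpha, beta, gamma A, gamma B, C-type) in 62 single neurons (columns, by group and, within a group, by falling number of stochastic isoforms), as log10(CPM + 1) in colour. Stochastic genes were high in scattered cells, and Pcdhgc4 was at 10 CPM or more in 48 of 62 cells.

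A neuron held a median of 4 stochastic isoforms (interquartile range 2 to 5, range 0 to 15, mean 3.90 ± 2.95 SD over 62 cells). The median was 4 in WT females (range 1 to 6), 4 in WT males (0 to 15), 3 in Mut females (0 to 12) and 3 in Mut males (1 to 10), and the 4 ranges overlapped. By cluster, the mean per cell was 1.19 alpha, 1.16 beta, 1.18 gamma A and 0.371 gamma B isoforms. At least 1 alpha isoform was present in 46 cells, 1 beta isoform in 39, 1 gamma A isoform in 43 and 1 gamma B isoform in 21.

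Most neurons carried both kinds of isoform. Stochastic and C-type isoforms occurred together in 48 cells, stochastic isoforms alone in 9 and a C-type isoform alone in 3, all 3 of them Mut female. Those 3 (Mut female cells 2, 6 and 18) held 4, 2 and 1 of the 10 MGE markers and 3154, 753 and 5720 CPM of summed astrocyte markers, against a median of 81.3 CPM over all 62 cells, and the part of astrocyte RNA was not tested. In 2 WT male cells no member was at the limit, and summed protocadherin expression there was 8.19 and 20.5 CPM, against a median of 786 CPM over all 62 cells and a highest value of 2484 CPM. These 2 cells held 3 and 2 of the 10 MGE markers, and 2209 and 124 CPM of summed astrocyte markers, in that order.

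WT male cell 19 held the most isoforms, 15 stochastic and 4 C-type. It carried 8 of 22 beta genes, its total was 8822703 counts, and it also had 8 of 9 pyramidal neuron markers at the limit beside 7 of 10 MGE markers. Mut female cell 21 held 12 stochastic isoforms and Mut male cell 6 held 10, with 0 and 2 pyramidal markers. Mut female cell 21 also had 5 of 7 oligodendrocyte-lineage markers (1916 CPM in sum) and 3 of 10 astrocyte markers at the limit. Mut male cell 6 was also the deepest cell. Across the 62 cells the number of stochastic isoforms had a Spearman correlation of 0.24 with the total count, 0.63 with summed protocadherin CPM, 0.07 with summed pyramidal markers, -0.14 with microglial, -0.26 with astrocyte and -0.39 with erythrocyte markers. These values describe cells that share animals and slices in an unknown way, and the sum shares its reads with the number it is set against.

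**Figure D2:**
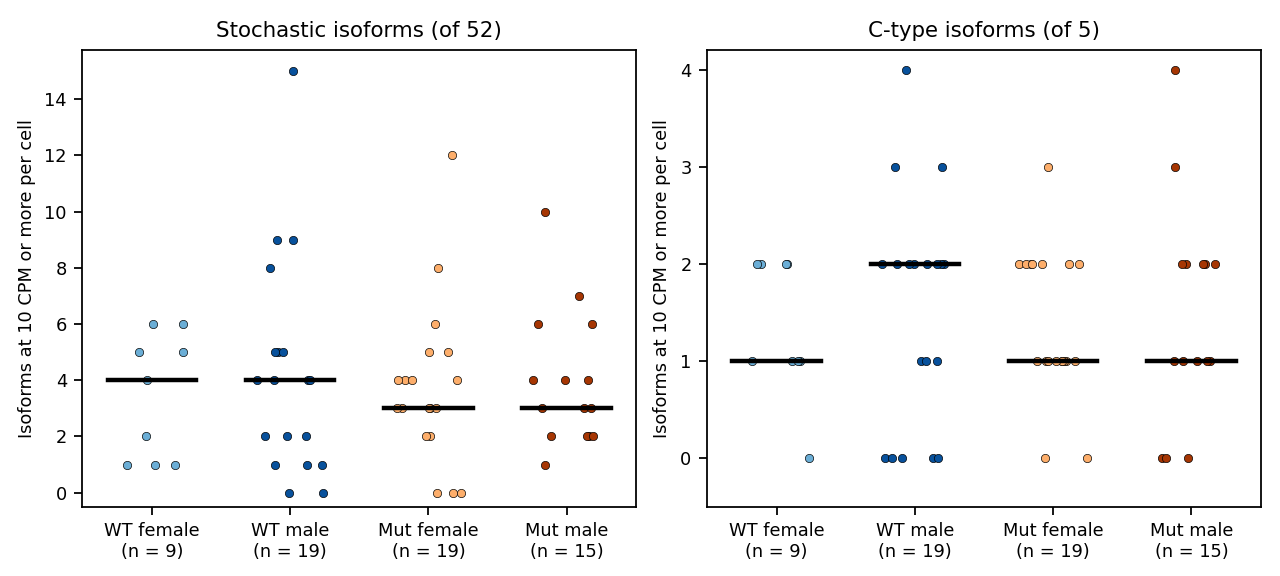
Number of stochastic isoforms (left, of 52) and C-type isoforms (right, of 5) at 10 CPM or more in each neuron, by group; points are cells and bars are medians. Stochastic medians were 4, 4, 3 and 3 from left to right, with 1 WT male cell at 15.

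Cells seldom held the same set. Among the 57 cells with a stochastic isoform there were 55 distinct sets, and 54 of them occurred in a single cell. The exception was the set Pcdha4 with Pcdhga11, found in WT male cell 18, WT female cell 8 and Mut male cell 16. Of the 1596 pairs of cells, 51.6% shared no stochastic isoform, 560 pairs shared 1 and 212 shared 2 or more, up to 6. Pcdha4 was the only shared isoform in 185 pairs. Among the 39 cells with a beta isoform, 79.6% of 741 pairs shared none of them. Sets drawn from other genes that are on in few cells were not counted. The variety of sets is thus not shown to be particular to clustered protocadherins.

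Of the 5 C-type isoforms, Pcdhgc4 was the most widespread. It reached the limit in 48 of 62 cells (77.4%, 95% Clopper-Pearson interval 65.0 to 87.1%, which covers counting error only): in WT, 7 of 9 female and 14 of 19 male cells, and in Mut, 15 of 19 female and 12 of 15 male cells. Its lowest, median and highest levels were 0.663, 97.7 and 1325 CPM in WT females and 0, 179 and 498 CPM in WT males. They were 1.10, 134 and 916 CPM in Mut females and 0.418, 53.6 and 469 CPM in Mut males. Every group thus held cells at nearly no Pcdhgc4 beside cells with abundant Pcdhgc4. The groups overlapped up to 469 CPM, and cells above the highest male value of 498 CPM were found in both female groups. WT female cell 7, the highest, held 2 of 10 MGE markers and 5492 CPM of summed astrocyte markers; the part of other cells' RNA in its value was not tested. Per length, in the deposited TPM (transcripts per 1000000), Pcdhgc4 was the most abundant clustered protocadherin in 27 of the 60 cells with any member at the limit. Pcdha11 and Pcdhga11 followed with 3 cells each by TPM. By reads, Pcdhgc4 led in 26 cells, Pcdhga11, Pcdhga3 and Pcdhac2 in 3 each and Pcdha11 in 1. The ranking was repeated without reads that short transcripts of Pcdhgc4, Pcdha4 and Pcdha11 could hold. Pcdhgc4 then led in 11 cells, Pcdhac2 in 6 and Pcdhga3 in 4. Pcdhga11, Pcdha2 and Pcdhga12 led in 3 cells each and Pcdha11 in 1.

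The remaining C-type isoforms were on in fewer cells. Pcdhgc3, first of the C-types in the gamma cluster, reached the limit in 20 cells (WT 2 female and 9 male, Mut 4 female and 5 male), with a median of 85.7 CPM in those cells. Pcdhac2, the last variable exon of the alpha cluster, did so in 16 cells (2, 4, 6 and 4 in the same order), with a median of 146 CPM. Pcdhgc5 was at the limit in 3 cells, at 13.4 to 45.2 CPM. Pcdhac1 was at the limit in WT female cell 1 (59.3 CPM) and WT male cell 19 (78.2 CPM) alone. A neuron held a median of 1 C-type isoform (range 0 to 4); 18 cells had Pcdhgc4 as their sole C-type, 13 had Pcdhgc3 with Pcdhgc4, 8 had Pcdhac2 with Pcdhgc4, and 11 had none. C-type genes took a median of 30.8% of a cell's clustered protocadherin reads, with a range of 0.191 to 97.6%.

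How the reads of Pcdhgc4 were assigned bears on these values, because gamma transcripts share their constant exons. The ratio of a gene's estimated counts to its TPM gives the transcript length that the quantification used for it. For the 31 members with a single annotated transcript and a cell at the limit, the implied length differed from the annotated one by at most 0.621%. Pcdhgc4 has an annotated short transcript of 2272 nucleotides and a longest one of 5024 nucleotides. Of the 31-base words of the short one, 6.74% occur in no other clustered protocadherin gene. Genes outside the clusters were not searched. In 19 of the 48 Pcdhgc4 cells the implied length was within 2% of the short transcript, and in 4 cells within 2% of the longest. Counting only reads that the short transcript could not hold, also a choice made after seeing the data, Pcdhgc4 was at 10 CPM in 27 cells (WT 6 female and 8 male, Mut 7 female and 6 male), still more than Pcdhgc3. Another gamma gene was at the limit in 40 of the 48 cells, and in 8 cells Pcdhgc4 was the only one.

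**Figure D3:**
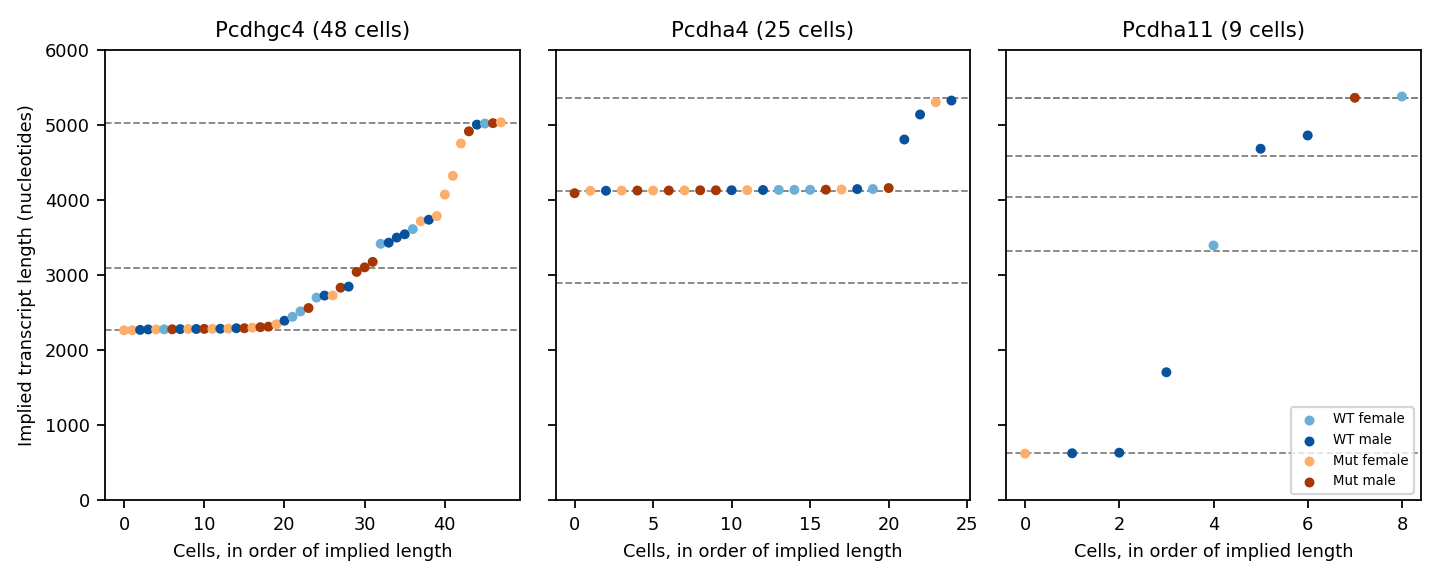
Transcript length implied by the ratio of estimated counts to TPM, in nucleotides, for Pcdhgc4 (48 cells), Pcdha4 (25 cells) and Pcdha11 (9 cells); points are the cells at 10 CPM or more in order of length, coloured by group, and dashed lines are the lengths of annotated transcripts. In 19 cells Pcdhgc4 lay within 2% of its 2272-nucleotide transcript, and in 21 cells Pcdha4 lay within 2% of its 4129-nucleotide transcript.

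Among the 11 stochastic alpha genes, Pcdha4 was on in most cells, 25 of 62 (WT 4 female and 7 male, Mut 7 female and 7 male), with a median of 51.7 CPM in those cells and a highest value of 321 CPM. In 21 of these 25 cells its implied length matched a 4129-nucleotide transcript within 2%, and 4 cells stayed at the limit when the reads that this transcript could hold were left out. Another alpha member was at the limit in 17 of the 25 cells. Pcdha11 was on in 9 cells, of which 3 matched a 625-nucleotide transcript. The annotation gives the symbol Pcdha11 to 2 genes, so its reads may join both. Pcdha8 never reached the limit and had at most 0.269 CPM.

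Pcdha5 was on in 11 of the 62 cells, all 11 of them male. A WT female cell marked as contaminated, outside the 62, held it at 79.5 CPM. It reached the limit in 7 of 19 WT male cells (up to 386 CPM) and 4 of 15 Mut male cells (up to 565 CPM). In the 28 female cells compared its highest value was 7.49 CPM, and 0 of 28 allows a share of up to 10.7% by the limit of 3 counts, or 12.3% by the Clopper-Pearson interval. The lower bounds of the 95% Clopper-Pearson intervals of the male groups were 16.3% and 7.79%, and the upper bounds in females were 33.6% (WT) and 17.6% (Mut). All these bounds cover counting error only and take the cells as independent. The difference between the sexes was seen in the data first and was not tested, since the number of animals behind each group is unknown.

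The 22 beta genes were on in 0 to 12 cells each. Among the clustered genes, their reads are the easiest to tell apart. A median of 88.2% of the 31-base words of their longest transcripts occur in no other clustered protocadherin gene. The median was 37.3% in the alpha and 52.5% in the gamma cluster. Pcdhb17 was on in 12 cells (WT 3 female and 4 male, Mut 3 female and 2 male) with a median of 60.1 CPM and a highest value of 507 CPM in Mut female cell 15. Pcdhb7 was on in 7 cells, 4 WT male and 3 Mut female, with a median of 138 CPM. Pcdhb12 was on in 6 cells, at 75.9 to 512 CPM. The highest value of any beta gene was 1079 CPM of Pcdhb9 in WT female cell 7, which alone carried nearly the whole WT female sum of that gene. Pcdhb1 had no read in any cell, and Pcdhb5 and Pcdhb13 never reached the limit.

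Among the stochastic genes of the gamma cluster, the 2 A-type genes nearest to the C-types were the most widespread. Pcdhga12 was on in 19 cells (WT 2 female and 8 male, Mut 5 female and 4 male, with a median of 106 CPM). Pcdhga11 was on in 18 cells (4, 3, 6 and 5 in the same order, with a median of 146 CPM). In 7 of the 19 Pcdhga12 cells the implied length was within 2% of a 4352-nucleotide transcript annotated as retaining an intron. Reads of that transcript were kept in all counts. Pcdhga3 was on in 6 cells, up to 581 CPM in Mut male cell 7. The later 6 of the 12 gamma A genes in chromosomal order were at the limit 52 times and the first 6 were so 21 times, a split that Pcdhga11 and Pcdhga12 set. Of the gamma B genes, Pcdhgb2 was on in 7 cells (4 WT male and 3 Mut female), Pcdhgb7 in 5 and Pcdhgb6 in 4. Pcdhga4 and Pcdhgb4 never reached the limit. For each of the 6 members that never did, 0 of 62 cells allows a share of up to 4.84% by the limit of 3 counts. This covers counting error only and takes the cells as independent.

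**Figure D4:**
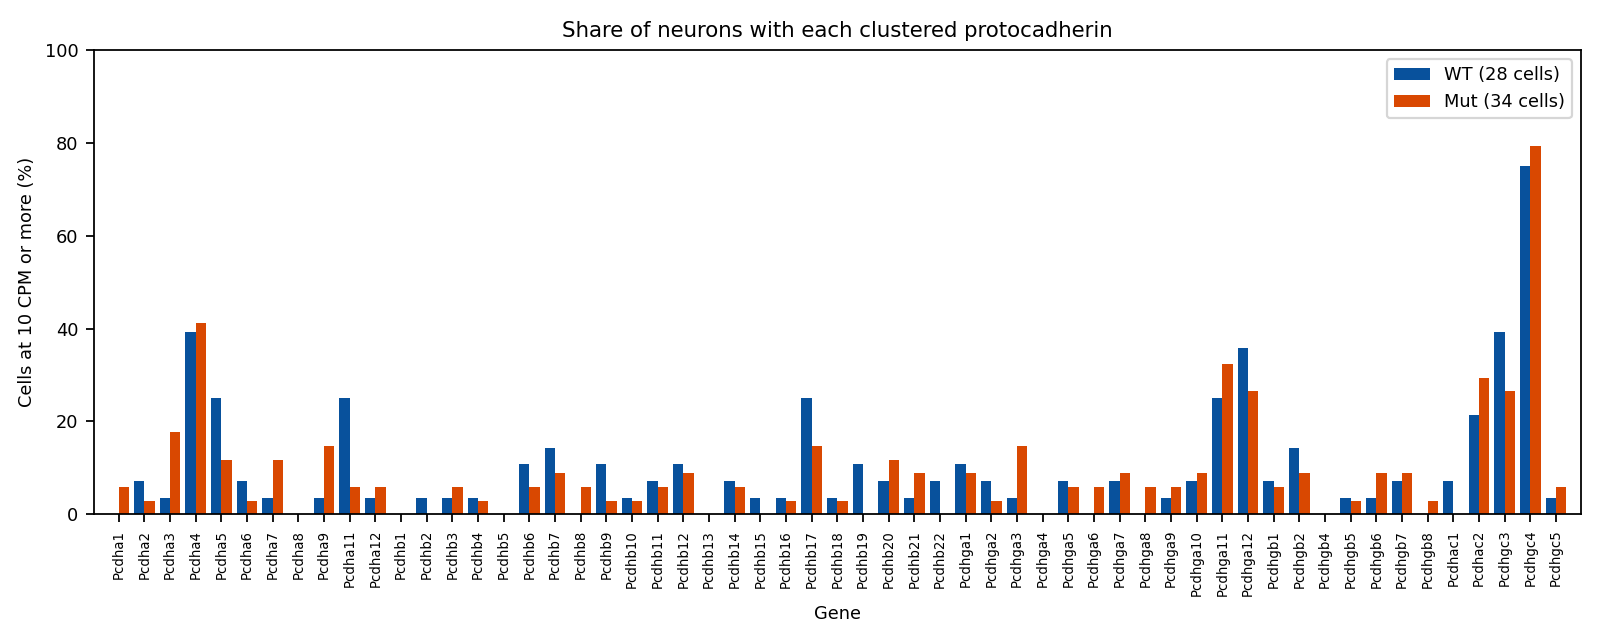
Share of WT (28 cells, blue) and Mut neurons (34 cells, orange) with each clustered protocadherin at 10 CPM or more, in percent of cells. Pcdhgc4 stood at 75% in WT and 79.4% in Mut, and no stochastic gene exceeded 41.2% in either genotype.

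The mean numbers of isoforms lay close together in the genotypes. The mean number of stochastic isoforms per cell was 3.44 in WT females, 4.26 in WT males, 3.74 in Mut females and 3.93 in Mut males. Mut minus WT, over the 4 group means, was -0.02 isoforms (exact two-sided permutation test, p = 1, where 2 against 2 means cannot give less than 0.333). For C-type isoforms the means were 1.33, 1.53, 1.37 and 1.47 in that order, and the difference was -0.01 (exact permutation test, p = 1). The spread between cells (SD 2.19 to 3.8 for stochastic isoforms) was far larger than either difference.

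Cells with and without pyramidal neuron RNA, a split chosen after seeing the data, differed in number in a way that was not the same in the genotypes. In WT cells with Neurod6 or Slc17a7 at the limit, the mean number of stochastic isoforms was 4.67 (6 females) and 5.33 (12 males), and without them it was 1 (3 females) and 2.43 (7 males). In Mut cells it was 2.70 (10 females) and 4.00 (11 males) with these genes, and 4.89 (9 females) and 3.75 (4 males) without. With the 39 cells left out, 23 cells remained and Mut minus WT was 2.61 isoforms (exact permutation test, p = 0.333, the smallest possible). With 3 WT female cells left and no animal named, this cannot show whether the closeness of the genotype means depended on the cells left out. The part of pyramidal RNA in this result was not tested.

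Summed alpha expression was lower in WT females than in the other groups, with a mean of 103 CPM per cell against 236 in WT males, 252 in Mut females and 259 in Mut males. Both Mut means lay above both WT means (exact permutation test, p = 0.333), but without Mut female cell 23 (1549 CPM) the Mut female mean was 180 CPM, under that of WT males. The medians were 64.4 and 265 CPM in the WT groups (female, male) and 132 and 229 CPM in the Mut groups. Summed gamma expression was 638 and 423 CPM in the WT groups (female, male) and 503 and 393 CPM in the Mut groups (p = 0.667 in the exact permutation test). Beta expression was lowest in Mut males: its median there was 2.97 CPM per cell, against 16 in WT females, 83.0 in WT males and 168 in Mut females. A summed beta level of 10 CPM was reached in 6 of 15 Mut male and 14 of 19 Mut female cells, and in 14 of 19 male and 5 of 9 female WT cells. Mean numbers of beta isoforms were 0.667 and 1.21 in Mut males and females and 1.58 and 1 in their WT counterparts, and Mut minus WT was -0.35 (exact permutation test, p = 0.667). In bulk terms, fewer cells with an isoform and less RNA of it per cell cannot be told apart in the sums used next.

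Counts were summed per group and compared between genotypes with sex as a covariate (edgeR quasi-likelihood test, Benjamini-Hochberg adjustment over 16435 genes). Of the 57 members, 51 passed the filter on low counts and 0 were called at an adjusted p under 0.05, as for all genes (0% higher and 0% lower in Mut). At an unadjusted p under 0.05, 2 members were higher in Mut (1.66% of all genes) and 1 was lower (1.83% of all genes). The median log2 difference, Mut against WT, was 0.46 over the 51 members and 0.00 over all genes.

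Pcdhgc4 had the smallest error of all members. Its level in the summed counts, scaled by TMM, was 429 CPM in WT females, 173 in WT males, 243 in Mut females and 99.1 in Mut males, so it was lower in Mut in both sexes (log2 ratio -0.82 in females and -0.80 in males). The log2 difference was -0.81 ± 0.37 (SE) and was not past the edgeR test (unadjusted p = 0.0833, adjusted p = 1). WT female cell 7 held 43.5% of the WT female reads, and without that cell the difference over both sexes was -0.46. The ratio within females was not computed without it. In females the median per cell went the other way from the sums, at 52.2 TPM in WT and 63.8 TPM in Mut. In males it was lower in Mut, at 86.3 TPM in WT and 34.7 TPM in Mut. The lower level in Mut females is therefore shown for the sums only. The share of cells with Pcdhgc4 was 75% in WT and 79.4% in Mut, and 50% and 38.2% once reads that the short transcript could hold were left out, so its direction depended on those reads.

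The 3 members with an unadjusted p under 0.05 each rested on single cells. Pcdha1 was at 16.7 CPM in Mut females and 5.33 in Mut males, whereas the WT sums were 0.113 (female) and 0.00762 CPM (male) (log2 difference 8.12 ± 2.32 SE, edgeR unadjusted p = 0.0197, adjusted p = 1). Mut female cell 19 gave 96.5% of the first sum and Mut male cell 10 gave 96.0% of the second. Without Mut female cell 19 the difference was 5.64, and in a limma fit of log2(mean CPM + 1) over cells it was 3.44. Pcdhga6 was at 12.1 CPM in Mut females and 3.92 in Mut males, with 0.0564 and 0.0533 CPM in the same sexes of WT, and 1 cell in each Mut group held nearly all of it; its log2 difference of 6.92 was 3.68 without Mut female cell 19. Pcdhac1 was at 11.6 CPM in WT females and 5.25 in WT males, with 0 and 0.0262 CPM in the same sexes of Mut, from WT female cell 1 and WT male cell 19. Pcdha9 (log2 difference 5.33, unadjusted p = 0.0788) was the next among the higher genes, with 4 Mut female, 1 Mut male and 1 WT male cell at the limit. Pcdhb15 (log2 difference -4.11, unadjusted p = 0.0847) was the next among the lower ones after Pcdhgc4, and 1 WT female cell at 39.4 CPM was the only one at the limit.

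Such dependence on 1 cell was common among the members, and it was not computed over all genes. Of the 133 sums of a member in a group that held at least 100 reads, 57 (42.9%) had 90% or more of their reads from 1 cell, and the median share of the leading cell was 82.4%. DESeq2, run on the same 4 sums, called 8 of the 48 members to which it gave an adjusted p, at an adjusted p under 0.05: Pcdha1, Pcdha3, Pcdha7, Pcdha9 and Pcdhga6 higher, and Pcdha6, Pcdhac1 and Pcdhga2 lower in Mut. It called 2.47% of all genes higher and 2.01% lower. Neither tool sees the spread between animals or the number of cells behind a sum.

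Members moved in the same direction in both sexes about as often as all genes did. In females 22 members were at least 2-fold higher in Mut and 12 at least 2-fold lower (23.1% and 18.2% of all genes); in males 15 were higher and 15 lower (16.7% and 17.4% of all genes). In both sexes, 6 of the 51 members were past 2-fold higher and 4 past 2-fold lower (5.11% and 3.77% of all genes). Of the 51 members, 25 moved in the same direction in both sexes, where 50.2% of all genes did. Pcdhb9 was at 152 CPM in WT females, 0.344 in Mut females, 2.18 in WT males and 15.2 in Mut males, so its log2 ratio was -6.84 in females and 2.35 in males. Pcdhgb2 turned the other way, with log2 ratios of 4.30 in females and -4.67 in males. These sums compare groups without replicates and carry no test.

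**Figure D5:**
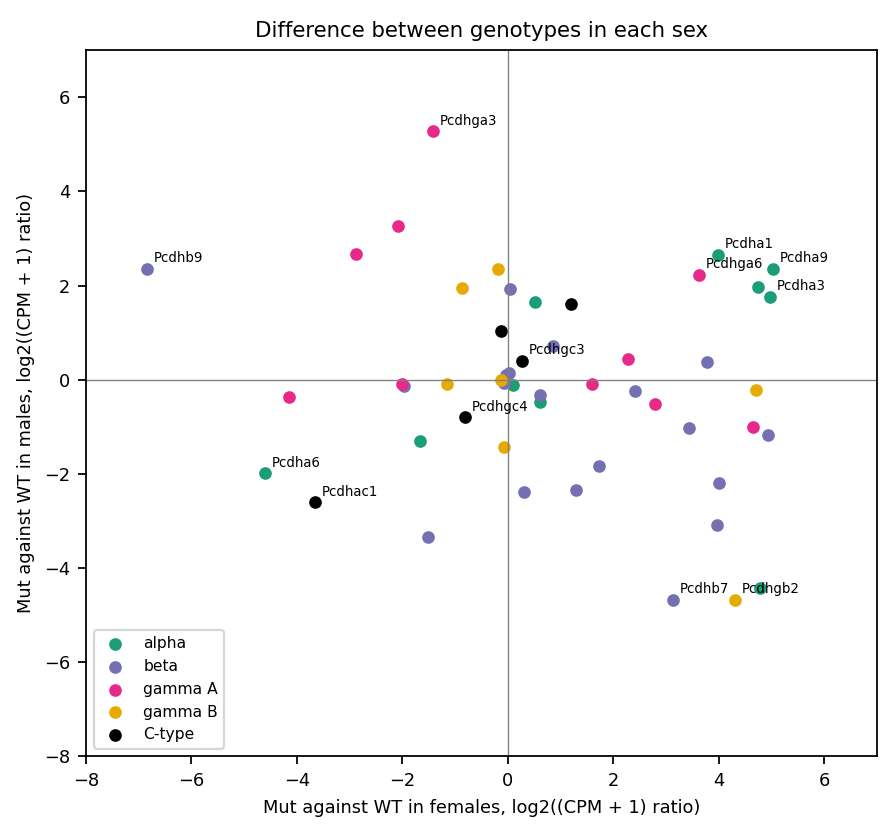
Mut against WT in females (horizontal) and males (vertical) for the 51 members that passed the filter, as the log2 ratio of TMM-scaled CPM of the summed counts with 1 CPM added; colours give the subgroup and some genes are named. Pcdhgc4 lay at -0.82 and -0.80. Of the 51 genes, 26 did not share a direction between the sexes, as for 8186 of all 16435 genes tested.

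The genes that act around the clusters were compared in the same fit, and none of them passed it. Of 19 regulators of promoter choice and silencing, 18 were tested, with 0 called; the median log2 difference was -0.23. The cohesin loader Nipbl stood at 1.56 ± 0.98 (SE), the cohesin subunit Smc1a at 1.27 ± 0.90, the repressor Rest at -2.52 ± 1.86 and Ctcf, which loops promoters to the enhancers of the clusters, at -0.38 ± 0.51. Of 18 binding and signalling partners, 0 were called: focal adhesion kinase Ptk2 was at 0.90 ± 0.62, the actin-linked Marcks at 0.42 ± 0.36, Snx27 at -1.34 ± 0.71 and the synaptic adhesion gene Nlgn1 at -0.39 ± 0.59. Of 6 genes for cleavage of protocadherins by ADAM10 and gamma-secretase, 0 were called; the secretase subunits Aph1a, Ncstn and Psenen were at 3.38 ± 1.89, 0.60 ± 0.63 and -0.51 ± 0.65. Of 11 interneuron survival genes, 10 were tested and 0 called, with the anti-apoptotic Mcl1 at 1.09 ± 0.53 and Bcl2l1 at 0.65 ± 0.74, and the pro-apoptotic Bax at -0.66 ± 0.52 and Casp9 at -4.94 ± 2.58.

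The non-clustered delta protocadherins, each with a promoter of its own and no shared exons with the clusters, were on in 5 (Pcdh20) to 45 cells (Pcdh8). Pcdh19, an adhesion gene of the same superfamily, was on in 38 cells with a median of 38.2 CPM over all 62, and Pcdh9 in 30. Among the clustered genes, Pcdhgc4 alone was on in more cells than Pcdh8. By genotype, 0 of 10 delta genes were called; Pcdh8 was at 0.40 ± 0.37, Pcdh9 at 0.65 ± 0.74, Pcdh19 at -0.96 ± 1.19 and Pcdh11x at -0.86 ± 1.09.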

How the data were processed

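The authors deposited estimated counts per gene (not whole numbers) before and after their quality filter, and TPM; kallisto and GRCm38 are given per the submitters' processing notes, and versions, annotation and filter are not given in the sources used here. Columns of other samples (44 in the filtered counts, 52 in the unfiltered counts, 44 in the TPM table) were not used. CPM were computed from each cell's total. A tolerance of 0.001 reads found 79.9% of beta, 1.81% of alpha and 6.25% of gamma values above 0 to be whole; the remainder had been divided among transcripts. Counts were summed over cells per genotype and sex, rounded, filtered (filterByExpr, minimum count 10), scaled by TMM and tested with edgeR 4.0.16 (limma 3.58.1, R 4.3.3; 1 residual degree of freedom); SE is the log2 difference over the root of F, and ratios within a sex added 1 CPM. The fit was tested on simulated data. Alternatives included DESeq2 1.42.0, other limits, thinning and leaving out each cell. Implied lengths were calibrated on single-transcript genes of GENCODE M21 with at least 100 counts. Named were the C-types, the 3 most and the 1 least widespread stochastic genes per subgroup, 3 genes per direction by genotype with the same direction in both sexes, and 2 per direction per other list; further genes, and Pcdhb9, Pcdhgb2 and the single cells, were named after their values were seen. Members and lists were chosen with earlier results of these data known. Pcdha10 was not analysed here. Cells of 1 group may come from 1 animal, so p-values do not measure the spread between animals. The permutation p-values rest on 4 group means. The edgeR error joins the spread of a gene's 4 sums with that shared across genes (prior degrees of freedom 3.6).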

Additional observations from a re-analysis of the deposited data

Results flagged for a closer look

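Among the 9 WT female cells, a gap to the nearest cell above 0.493 of the group's range was found for 12 of the 24 measures tested (chance gives about 1 in 20 for normally distributed values, a rate that does not apply to genes that are on in few cells). WT female cell 7 stood apart with 2409 CPM of summed clustered protocadherins and 1081 CPM of beta genes, nearly all of it Pcdhb9. WT female cell 8 did so with 0 C-type isoforms, 61.9 CPM of Pcdha4 and 557 CPM of Pcdhga11. The C-type number takes few whole values in this group, so its gap of 0.5 of the range says little. WT female cell 1 stood apart with 59.3 CPM of Pcdhac1 and 136 CPM of Pcdhga3. WT female cell 2 stood apart with 96.4 CPM of Pcdha11 and 104 CPM of Pcdhb12, and WT female cell 4 with 336 CPM of Pcdhac2. Pcdhgc5 in WT female cell 3 (0.213 CPM) and Pcdhgb6 in WT female cell 9 (0.192 CPM) met the same mark at levels of about 1 read.

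Cells outside the comparisons held clustered protocadherins too. The 9 cells that failed the authors' filter had a median of 2 stochastic isoforms, and 4 of them had no member at the limit. The 5 WT cells marked as contaminated, in which all but 1 of 11 microglial genes were at the limit in every cell, had a median of 4, and Pcdhgc4 was on in all 5.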

How the results depend on the processing

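The median number of stochastic isoforms was 6 at a limit of 1 CPM, 3 at 50 CPM, 2 at 100 CPM, 3 at 10 TPM and 3 with failed cells added. It was 3 without the reads of short transcripts and 3 without cells with Neurod6 or Slc17a7; these settings, those on microglial markers and beta members, and all settings for Pcdhgc4 cells and pairs of cells were chosen after seeing the data. The median number of C-type isoforms was 2 at 1 CPM and 1.5 at 5 CPM. Mut minus WT turned positive at 1 CPM (0.0561), 50 CPM (0.168), 100 CPM (0.406), 10 TPM (0.175), after thinning each cell to 2946352 counts (0.0146) and without cells with Neurod6 or Slc17a7 (2.61). Cells with Pcdhgc4 made up 91.9% at 1 CPM, 53.2% at 100 CPM and 43.5% without the reads of short transcripts. Pairs sharing no stochastic isoform made up 21.7%, 42.9%, 69.6% and 78.6% at 1, 5, 50 and 100 CPM, 63.1% at 10 TPM, 62.4% without short transcripts, 62.3% without cells with Neurod6 or Slc17a7, 48.0% without cells with microglial markers and 79.6% over beta members only. A higher limit counts fewer isoforms by construction; the cause of the other shifts was not tested.

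Members called by genotype numbered 8 with DESeq2 and 0 with 7 other fits (median-of-ratios factors, scaling to totals only, sex left out, no filter, mean CPM with limma, failed or contaminated cells added). Leaving out each of the 62 cells gave a median of 4 stochastic and 1 C-type isoforms and 0 called members each time; Mut minus WT ranged from -0.248 to 0.28, cells with Pcdhgc4 from 77.0 to 78.7% and pairs sharing none from 50 to 53.2%. Pcdha1, Pcdhga6, Pcdha9, Pcdhac1, Pcdhgc4 and Pcdhb15 kept their direction wherever they were fitted; with limma on mean CPM, a scale that adds 1 CPM, Pcdha1 was at 3.44, Pcdhga6 at 2.74, Pcdha9 at 3.29, Pcdhac1 at -2.63 and Pcdhb15 at -1.23. Pcdhb15 was at -1.02, -2.73 and -6.83 without WT female cell 5, WT male cell 11 and Mut female cell 22, Pcdha9 at 2.34 without Mut male cell 6 and Pcdhga6 at 3.68 without Mut female cell 19. No paired analysis was possible because the labels give the cells no replicate numbers. At 10 CPM the depth of every cell gives at least 29.5 reads; the unnamed animals limit all comparisons.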
